A study of Rattus norvegicus with 120 samples.

Results

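The miR-30 family was followed through 114 small RNA libraries of rat hippocampus, made from male Wistar rats with 1 library per rat. Its members here were the 7 mature miRNAs rno-miR-30a-5p, rno-miR-30d-5p, rno-miR-30e-5p, rno-miR-30c-5p, rno-miR-30b-5p, rno-miR-30a-3p and rno-miR-30e-3p (the prefix rno, for rat, is left out from here on), chosen by name among the 666 mature miRNAs listed in at least 1 stage. The other 4 listed arms of the family, miR-30b-3p, miR-30c-1-3p, miR-30c-2-3p and miR-30d-3p, were described beside them. Status epilepticus (SE), a prolonged seizure, was induced with pilocarpine, a muscarinic agonist, at postnatal day 12 (infancy-onset) or postnatal day 60 (adult-onset). Controls received saline in its place, and the study's methods, which describe the chronic rats, state that LiCl was given to every rat beforehand and paraldehyde after the onset of SE. The acute stage was sampled 24 hours after SE, the latent stage after 1 week and the chronic stage after 3 months. Infancy-onset rats were therefore younger than adult-onset rats in every stage, at day 13 against day 61 in the acute and day 19 against day 67 in the latent stage. Age at injection and age at sampling cannot be told apart.

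A microRNA (miRNA) is cut from a hairpin precursor, whose 5′ and 3′ sides give the 5p and 3p arms. The arm that is loaded into the silencing complex finds its messenger RNA targets mainly through its seed, bases 2 to 8. The 5p arms of the miR-30 family carry the same seed and can repress overlapping targets, such as the autophagy gene BECN1 described for miR-30a in human cells. In rats the family comes from 3 pairs of neighbouring genes in the RefSeq annotation (GRCr8). Mir30a and Mir30c2 lie on chromosome 9 with 19670 bases between them. Mir30e and Mir30c1 lie on chromosome 5 with 2906 bases between them, inside Nfyc, which encodes a subunit of the transcription factor NF-Y. Mir30b and Mir30d both lie in 1 long non-coding RNA gene on chromosome 7.

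The mature sequences are shown because the members differ little from each other, which bears on how reads were assigned to them. RefSeq (GRCr8) held 4 of the 7 members and 2 of the 4 other arms. The members without a sequence there were miR-30b-5p, miR-30d-5p and miR-30e-3p. Capitals mark the seed.
miR-30a-5p: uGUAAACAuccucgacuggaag
miR-30e-5p: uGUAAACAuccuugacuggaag
miR-30c-5p: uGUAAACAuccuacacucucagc
miR-30a-3p: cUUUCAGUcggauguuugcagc
miR-30c-1-3p: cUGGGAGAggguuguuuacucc
miR-30c-2-3p: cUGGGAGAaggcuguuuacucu
The 5p members miR-30a-5p, miR-30e-5p and miR-30c-5p shared the seed GUAAACA, which 4 of the 693 mature miRNAs in the table carried, the other one being miR-384-5p. This count does not cover miR-30b-5p and miR-30d-5p, which had no sequence there. The 3p arms had different seeds from the 5p arms, and miR-30c-1-3p and miR-30c-2-3p shared one with each other. miR-30a-5p and miR-30e-5p differed by 1 base, the substitution C13U counted from the 5′ end of miR-30a-5p, while each differed from miR-30c-5p at 5 of the 22 bases compared. Since 1 mismatch was allowed when reads were matched, reads of miR-30a-5p and miR-30e-5p could be assigned to one another, and their separate levels are uncertain. Without their sequences, miR-30b-5p and miR-30d-5p could not be checked for this. Their levels, and their ratios to the other 5p members, may carry the same uncertainty. The 3p sides of the Mir30a and Mir30e hairpins are also nearly alike, so the separate levels of miR-30a-3p and miR-30e-3p are uncertain in the same way. miR-30c-5p is made from both Mir30c1 and Mir30c2, so its reads cannot be told apart by gene.

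The hairpins of miR-30a (71 bases, chr9:33233941-33234011, plus strand) and miR-30e (92 bases, chr5:139637450-139637541, minus strand) are shown for the arm comparison, with the mature sequences held in the table in capitals.
Mir30a: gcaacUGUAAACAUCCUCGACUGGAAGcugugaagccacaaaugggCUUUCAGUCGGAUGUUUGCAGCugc
Mir30e: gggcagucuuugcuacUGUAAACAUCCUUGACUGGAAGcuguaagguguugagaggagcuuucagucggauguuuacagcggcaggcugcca

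Libraries held between 309975 and 4026890 miRNA reads in the acute, 450644 and 8165312 in the latent and 499094 and 28111631 in the chronic stage, with 8 to 10 rats per group. Of the listed miRNAs, 383, 406 and 442 had over 500 reads summed over the stage in the acute, latent and chronic tables and were tested. The 3 stages were counted and scaled as separate tables, so tests were made within a stage and levels were only set side by side across stages. Acute adult-onset SE libraries were shallower than their controls, with a median of 562003 against 1838745 reads. Chronic infancy-onset SE rats 2 and 4, adult-onset control 5 and infancy-onset control 10, and latent infancy-onset SE rat 4, had profiles apart from the other libraries of their stage (median rank correlation of 0.919 to 0.941 in the chronic stage, where the stage's median was 0.975, and 0.936 against 0.962 in the latent stage). Levels are given as CPM, edgeR's counts per megaread of the library after TMM normalization, and the 5 neuronal marker miRNAs summed to at least 50996 CPM in every library. Nothing in the labels says that rats shared a litter or a batch, and p-values set a difference between groups against the spread between rats within groups.

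The 7 members together took a group mean of 6.65% to 9.12% of all miRNA reads. By median, miR-30a-5p and miR-30d-5p were the highest members in every group. Over all libraries of a stage, miR-30a-5p averaged 24071 CPM in the acute, 31886 CPM in the latent and 30371 CPM in the chronic stage, where it ranked 10 of 383, 5 of 406 and 7 of 442 miRNAs. miR-30d-5p averaged 26352 CPM, 22549 CPM and 21638 CPM in the same stages and ranked 7, 7 and 9. The ranges of these leading members overlapped in all groups but the latent adult-onset controls, but within libraries miR-30a-5p was the higher one in all 10 rats of the latent infancy-onset controls, latent adult-onset SE rats and chronic adult-onset controls too.

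Below them came miR-30e-5p, with means of 17751, 13322 and 12771 CPM in the acute, latent and chronic stages, and miR-30c-5p, with 11244, 11980 and 8567 CPM. These neighbours overlapped in every group except the acute infancy-onset SE rats, and in the latent infancy-onset SE rats miR-30c-5p had the higher median. miR-30b-5p was far lower, at 1972, 1633 and 1464 CPM, and lay under the lowest miR-30c-5p value in all 12 groups. The 3p arms were the least abundant members, miR-30e-3p at 524, 974 and 789 CPM and miR-30a-3p at 279, 661 and 535 CPM. The family's low 3p levels left 63 reads as the smallest count of miR-30a-3p in a library, whereas no 5p member fell under 472 reads.

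**Figure D1:**
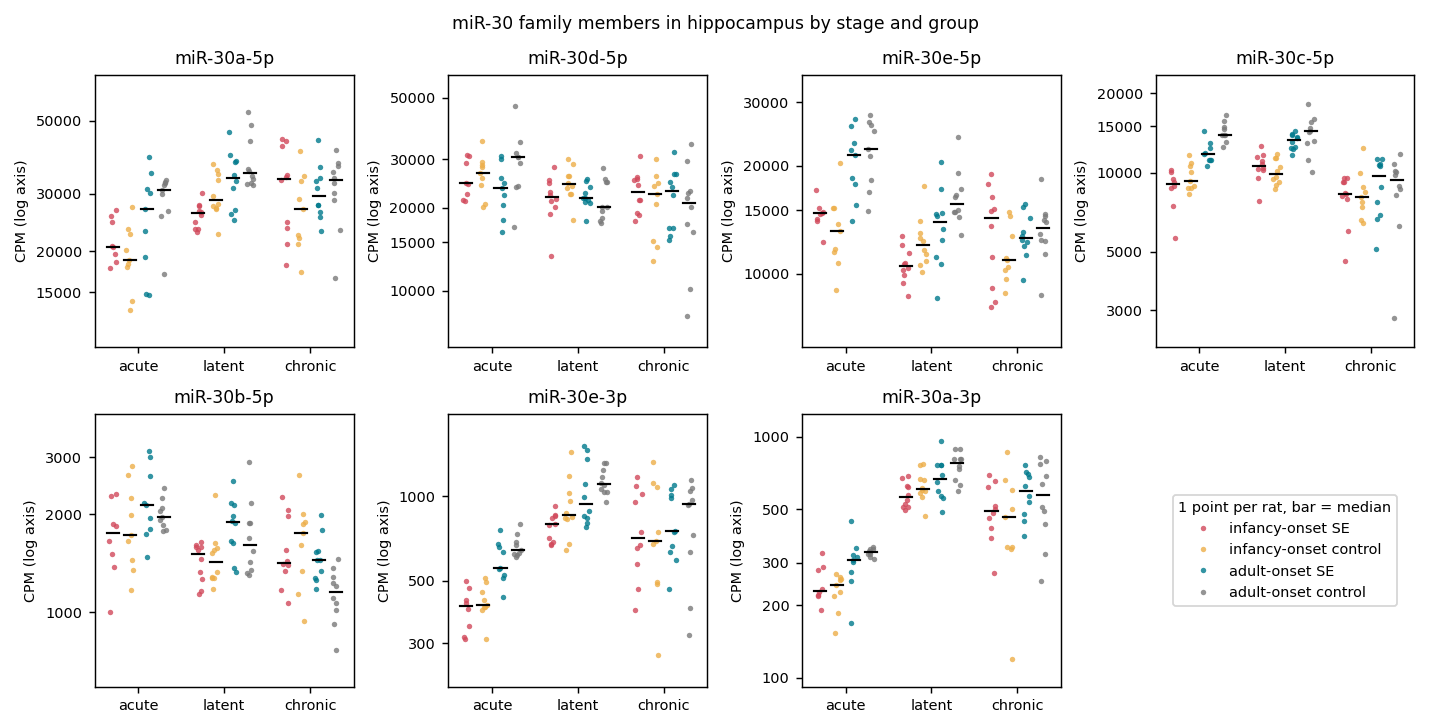
Levels of the 7 miR-30 members in CPM on log axes, 1 point per rat and a bar at each group median, for infancy-onset SE, infancy-onset control, adult-onset SE and adult-onset control rats in the acute, latent and chronic stages. Infancy-onset controls lie under adult-onset controls in the acute stage for miR-30c-5p, miR-30e-3p and miR-30a-3p without overlap, while miR-30d-5p and miR-30b-5p overlap. The share of all miRNAs that separate in this way was not counted.

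The comparison of the control groups asks how the family differs between younger and older hippocampus without SE. In the acute stage, 5 of the 7 members were lower in infancy-onset controls than in adult-onset controls and none was higher, by edgeR's quasi-likelihood test with Benjamini-Hochberg adjustment. The lower ones were miR-30e-5p, miR-30e-3p, miR-30c-5p, miR-30a-5p and miR-30a-3p, at 0.608 to 0.695 times the adult-onset level. miR-30d-5p and miR-30b-5p did not pass the test. Among all 383 miRNAs tested, 32.4% were lower and 34.7% higher, so differences ran in both directions. The median log2 fold change was 0.04 over all miRNAs and -0.56 over the 7 members. How many of the 383 miRNAs separated the groups without overlap was not counted, so the separations given below have no background share.

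miR-30c-5p had 8294, 9310 and 11710 CPM (lowest, median and highest of 9) in infancy-onset controls, against 12483, 13950 and 16544 CPM in the 9 adult-onset controls. The groups did not overlap, and the log2 fold change was -0.57 (SE 0.09, edgeR adjusted p = 2.03e-06). miR-30e-3p had 310, 411 and 513 CPM in infancy-onset controls, against 606, 644 and 796 CPM in adult-onset controls, also without overlap (log2 fold change -0.65, SE 0.11, edgeR adjusted p = 2.94e-06). Its 5p partner showed the largest difference among the members. miR-30e-5p had 9020, 13164 and 20287 CPM in infancy-onset controls, against 14900, 22297 and 27587 CPM in adult-onset controls (log2 fold change -0.72, SE 0.14, edgeR adjusted p = 1.84e-05). Here 6 of the 9 infancy-onset controls lay under every adult-onset control, and with the library total as a covariate the difference was -0.47 (edgeR adjusted p = 0.0023).

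The arms of miR-30a behaved alike. miR-30a-3p had 153, 242 and 269 CPM in infancy-onset controls, against 311, 332 and 349 CPM in adult-onset controls, with no overlap (log2 fold change -0.52, SE 0.13, edgeR adjusted p = 0.000552). miR-30a-5p had 13237, 18860 and 27307 CPM in infancy-onset controls, against 17007, 30813 and 32979 CPM in adult-onset controls (log2 fold change -0.56, SE 0.16, edgeR adjusted p = 0.00231). All 9 infancy-onset controls lay under the adult-onset median, and the groups overlapped. The 17007 CPM of adult-onset control 1 stood apart from the 25620 to 32979 CPM of the other adult-onset controls. Its library was the shallowest of the 9, at 507283 reads. In acute adult-onset SE rats 9 to 11, with 1239504 to 1408898 reads, miR-30a-5p was at 30189 to 38666 CPM. In the other rats of that SE group, with 434419 to 658315 reads, it was at 14763 to 30980 CPM. With the library total as a covariate the miR-30a-5p difference between controls was -0.25 and did not pass (edgeR adjusted p = 0.149). The part of depth was not tested further.

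The chromosome 7 members gave other values. miR-30d-5p had 20086, 26778 and 34949 CPM in infancy-onset controls, against 17034, 30456 and 46693 CPM in adult-onset controls (log2 fold change -0.17, SE 0.14, edgeR adjusted p = 0.296). miR-30b-5p had 1170, 1732 and 2825 CPM in infancy-onset controls, against 1774, 1960 and 2407 CPM in adult-onset controls (log2 fold change -0.08, SE 0.16, edgeR adjusted p = 0.658). The groups overlapped for both, with 5 infancy-onset controls under all adult-onset values of miR-30b-5p and 2 above them. Approximate 95% intervals, taken from the standard error, were -0.44 to 0.11 and -0.40 to 0.23, so falls of the size of miR-30e-3p lay outside both.

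Of the 3 other arms over the read minimum in the acute stage, 2 were lower in infancy-onset controls, both from the same loci as the members that were lower. miR-30c-2-3p, made beside miR-30a, had 35.2, 62.2 and 79.8 CPM in infancy-onset controls, against 59.2, 84.3 and 139 CPM in adult-onset controls (log2 fold change -0.54, SE 0.17, edgeR adjusted p = 0.0051). miR-30c-1-3p, made beside miR-30e, had 3.87, 12.2 and 26.6 CPM in infancy-onset controls, against 15, 18.2 and 24.8 CPM in adult-onset controls (log2 fold change -0.57, SE 0.24, edgeR adjusted p = 0.0363). This rests on low counts, 632 reads over the stage and 3 at the least in a library. miR-30d-3p was not called at 0.34 (SE 0.18, edgeR adjusted p = 0.100), and miR-30b-3p, with 458 reads over the stage, was not tested.

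In the latent stage, 4 of the 7 members were lower in infancy-onset controls and none was higher, where 28.6% of the 406 miRNAs tested were lower and 29.1% higher. They were miR-30c-5p, miR-30e-5p, miR-30a-5p and miR-30a-3p, at 0.720 to 0.830 times the adult-onset level. The median log2 fold change was -0.28 over the 7 members and 0.01 over all miRNAs.

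miR-30c-5p had 8687, 9902 and 11814 CPM in the 10 infancy-onset controls, against 10049, 14337 and 18162 CPM in the 10 adult-onset controls (log2 fold change -0.47, SE 0.08, edgeR adjusted p = 3.87e-06). All 10 infancy-onset controls lay under the adult-onset median. miR-30e-5p had 10120, 11981 and 17562 CPM in infancy-onset controls, against 12810, 15675 and 23975 CPM in adult-onset controls (log2 fold change -0.41, SE 0.12, edgeR adjusted p = 0.00211). miR-30a-5p had 22500, 28743 and 36936 CPM in infancy-onset controls, against 31760, 34530 and 53186 CPM in adult-onset controls (log2 fold change -0.33, SE 0.10, edgeR adjusted p = 0.00653). Under every adult-onset control lay 7 of the 10 infancy-onset controls for miR-30e-5p and 6 for miR-30a-5p. With library totals alone as scaling, miR-30a-5p did not pass (-0.18, edgeR adjusted p = 0.0577), while miR-30e-5p was at -0.26 (edgeR adjusted p = 0.033) and miR-30c-5p at -0.31 (edgeR adjusted p = 0.000194).

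The 3p members were nearer the threshold. miR-30a-3p had 468, 608 and 769 CPM in infancy-onset controls, against 594, 781 and 889 CPM in adult-onset controls (log2 fold change -0.27, SE 0.10, edgeR adjusted p = 0.0247). Its call was lost without adult-onset control 9 (-0.24, edgeR adjusted p = 0.0519) or infancy-onset control 3 (-0.23, edgeR adjusted p = 0.059), with library totals alone as scaling (-0.11, edgeR adjusted p = 0.336) and with the library total as a covariate (-0.22, edgeR adjusted p = 0.0669). miR-30e-3p had 645, 854 and 1437 CPM in infancy-onset controls, against 951, 1106 and 1315 CPM in adult-onset controls (log2 fold change -0.28, SE 0.13, edgeR adjusted p = 0.0527), and without infancy-onset control 10, its highest library, the difference was -0.37 and passed (edgeR adjusted p = 0.00777). The same was so without adult-onset control 3 or 6, or infancy-onset control 2 or 5, at -0.30 to -0.33. It also passed with DESeq2 (-0.31, adjusted p = 0.0359), edgeR with DESeq2 size factors (-0.31, adjusted p = 0.0412), limma voom with sample weights (-0.32, adjusted p = 0.00739), limma-trend (-0.35, adjusted p = 0.0177) and edgeR on the 2 control groups alone (-0.29, adjusted p = 0.047).

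miR-30d-5p had 18120, 24301 and 29914 CPM in infancy-onset controls, against 17680, 20164 and 27785 CPM in adult-onset controls, a log2 fold change of 0.18 (SE 0.10, edgeR adjusted p = 0.105). Only 1 infancy-onset control lay under the adult-onset median. The difference passed at 0.23 without adult-onset control 3 (edgeR adjusted p = 0.0429) and at 0.23 without infancy-onset control 3 (edgeR adjusted p = 0.0444). miR-30b-5p had 1176, 1428 and 2286 CPM in infancy-onset controls, against 1301, 1614 and 2906 CPM in adult-onset controls (log2 fold change -0.23, SE 0.13, edgeR adjusted p = 0.138), and it passed at -0.31 without infancy-onset control 10 (edgeR adjusted p = 0.0318). Depending on the rat left out, 3 to 6 of the 7 members were called.

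Of the 4 other arms, miR-30c-2-3p and miR-30c-1-3p were again lower in infancy-onset controls. miR-30c-2-3p had 53.0, 63.4 and 71.2 CPM in infancy-onset controls, against 69.0, 89.1 and 105 CPM in adult-onset controls (log2 fold change -0.51, SE 0.08, edgeR adjusted p = 1.07e-06), and 9 of the 10 infancy-onset controls lay under all adult-onset controls. miR-30c-1-3p had 3.28, 5.46 and 7.63 CPM in infancy-onset controls, against 6.45, 8.95 and 13.4 CPM in adult-onset controls (log2 fold change -0.81, SE 0.23, edgeR adjusted p = 0.00251). Its counts were again low, 839 reads over the stage and 3 at the least in a library. miR-30d-3p at 0.42 (edgeR adjusted p = 0.111) and miR-30b-3p at 0.16 (edgeR adjusted p = 0.419) were not called.

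In the chronic stage no member was lower in infancy-onset controls and 1 of the 7, miR-30b-5p, was higher. Among the 442 miRNAs tested, 2.26% were lower and 4.3% higher. miR-30b-5p had 940, 1751 and 2641 CPM in the 9 infancy-onset controls, against 768, 1158 and 1459 CPM in the 10 adult-onset controls (log2 fold change 0.56, SE 0.16, edgeR adjusted p = 0.0282). There were 6 infancy-onset controls above every adult-onset control and 2 under the adult-onset median. This call did not hold without infancy-onset control 1 (0.54, edgeR adjusted p = 0.0552) or infancy-onset control 9 (0.45, edgeR adjusted p = 0.0836), when the 2 control groups were fitted alone (0.55, edgeR adjusted p = 0.0817), without the filter on low counts (0.55, edgeR adjusted p = 0.0509) or with library totals alone as scaling (0.40, edgeR adjusted p = 0.172). It did hold without the 4 chronic libraries that stood apart (0.53, edgeR adjusted p = 0.0408).

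The other members ranged from -0.27 (miR-30a-3p, SE 0.23) to 0.05 (miR-30d-5p, SE 0.20) in the chronic controls. miR-30a-5p, for example, had 17332, 26980 and 40563 CPM in infancy-onset controls, against 16566, 32918 and 40776 CPM in adult-onset controls. Their standard errors were larger than in the latent stage. The intervals of miR-30a-5p (-0.54 to 0.14) and miR-30e-5p (-0.51 to 0.08) include their differences of the latent stage. That of miR-30c-5p (-0.41 to 0.31) does not include its latent value of -0.47, but it overlaps the latent interval of -0.64 to -0.31. Whether the control difference itself changed between stages was not tested. None of the 4 other arms was called by edgeR, and none had an unadjusted p under 0.05.

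**Figure D2:**
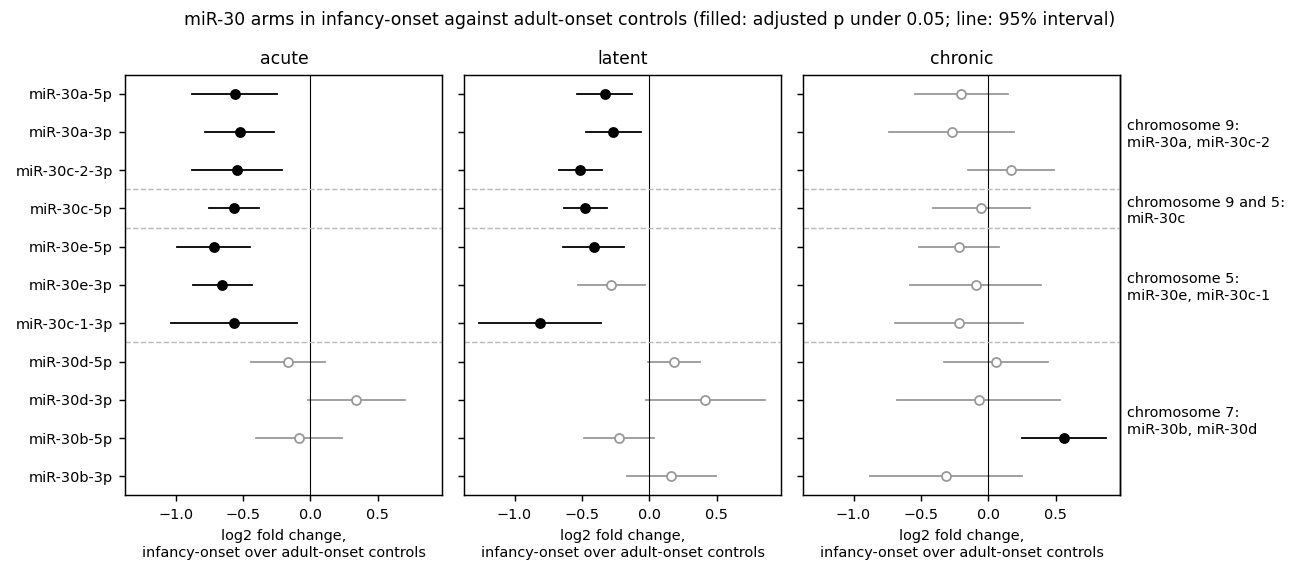
Log2 fold changes of 11 miR-30 arms in infancy-onset over adult-onset controls, grouped by chromosome of origin, with approximate 95% intervals. Filled points have an edgeR adjusted p under 0.05. In the acute stage the 7 arms from chromosomes 9 and 5 lie between -0.72 and -0.52 and those from chromosome 7 between -0.17 and 0.34, while in the chronic stage the 1 filled point is miR-30b-5p at 0.56.

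The whole hippocampus was measured, and fewer cells of a type cannot be told apart from less RNA per cell. Neuron and oligodendrocyte miRNAs were among the many that differed between the control groups. Over all miRNAs tested, 32.4% were lower and 34.7% higher in infancy-onset controls in the acute stage. These shares were 28.6% and 29.1% in the latent and 2.26% and 4.3% in the chronic stage. Of the 5 neuronal miRNAs (miR-124-3p, miR-128-3p, miR-138-5p, miR-218a-5p and miR-137-3p), 4 were lower in infancy-onset controls in both the acute and the latent stage and 0 in the chronic stage. Their summed level ranged from 54030 to 70830 CPM in infancy-onset controls, against 75157 to 92781 CPM in adult-onset controls, in the acute stage, and from 68630 to 86981 CPM against 77880 to 131588 CPM in the latent stage. The oligodendrocyte miRNAs (miR-219a-2-3p, miR-219a-5p and miR-338-3p) were lower for 3 of 3 in the acute stage, with summed levels of 473 to 1857 CPM in infancy-onset controls and 4488 to 8051 CPM in adult-onset controls. In the latent stage 1 of 3 was lower, and their sums overlapped at 3902 to 6916 CPM and 3644 to 11306 CPM. Erythroid miRNAs were higher for 2 of 3 in latent infancy-onset controls, with sums of 289 to 514 CPM against 98.3 to 516 CPM in adult-onset controls. Of 5 microglia and myeloid miRNAs, 1 was higher and 2 lower in the acute stage, and 1 higher and 1 lower in the latent stage. Choroid plexus and ependyma miRNAs were higher for 1 of 4 in the acute and 1 of 5 in the latent stage. Vessel miRNAs were higher for 1 of 4 in the latent and lower for 1 of 4 in the chronic stage. No neuronal or oligodendrocyte marker was at 0 in a stage. The part of cell make-up in the miR-30 differences was not tested.

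The balance between members was compared within each control library, which takes out the scaling of the library but not reads assigned to another member. All 10 ratios of the 5p members were tested in each stage with a two-sided exact permutation test, 30 tests in all, a comparison chosen after the levels were seen. In the latent stage miR-30d-5p gained on the other abundant members in infancy-onset controls. Its log2 ratio to miR-30c-5p was 1.28 ± 0.20 in infancy-onset controls and 0.62 ± 0.23 in adult-onset controls (SD, n = 10 each, exact permutation p = 2.2e-05, adjusted p = 0.00065). Its ratio to miR-30e-5p was higher by 0.60 (exact permutation, adjusted p = 0.00639) and that to miR-30a-5p by 0.51 (exact permutation, adjusted p = 0.00536).

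In the acute stage the miR-30b-5p to miR-30c-5p ratio was higher by 0.43 in infancy-onset controls (exact permutation, adjusted p = 0.0188), and the miR-30d-5p to miR-30c-5p ratio was also higher by 0.43 but did not pass (exact permutation, adjusted p = 0.0607). In the chronic stage the miR-30b-5p to miR-30e-5p ratio was -2.80 ± 0.47 in infancy-onset controls and -3.54 ± 0.41 in adult-onset controls (SD, n = 9 and n = 10, exact permutation, adjusted p = 0.0188). These 5 of the 30 ratios passed, and each set a chromosome 7 member against one from chromosome 9 or 5. Most of the 30 ratios are of this kind, and most of those did not pass. In the acute stage miR-30d-5p and miR-30b-5p against miR-30e-5p or miR-30a-5p did not pass (exact permutation, adjusted p = 0.101 to 0.247). The ratios among miR-30a-5p, miR-30e-5p and miR-30c-5p differed by 0.22 or less in every stage and none passed.

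**Figure D3:**
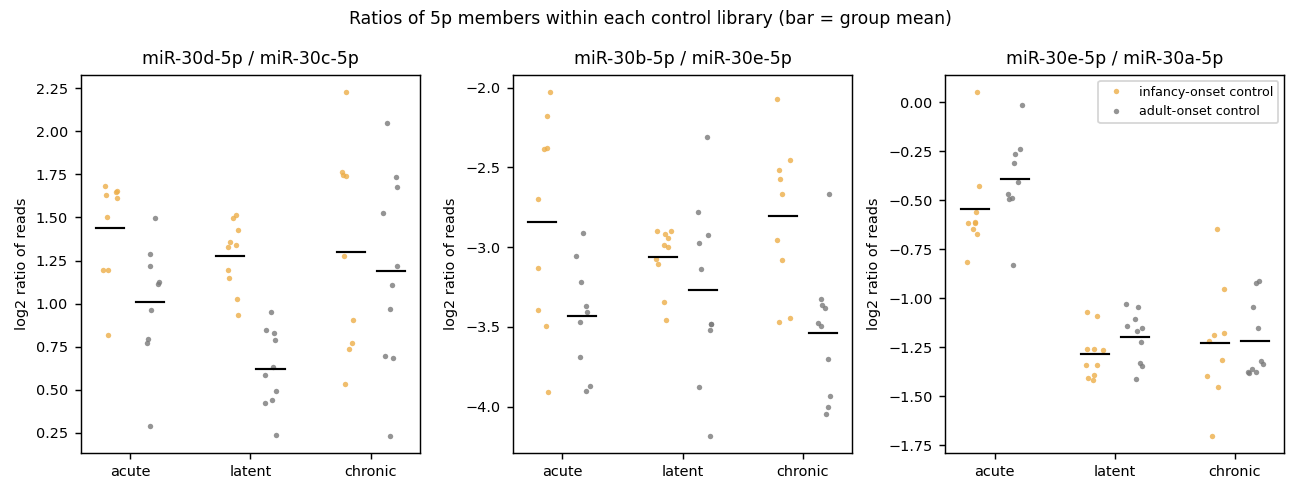
Log2 ratios of reads between pairs of 5p members within each control library, 1 point per rat and a bar at the group mean, for infancy-onset and adult-onset controls. The miR-30d-5p to miR-30c-5p ratio is 1.28 in infancy-onset and 0.62 in adult-onset controls in the latent stage, the miR-30b-5p to miR-30e-5p ratio is -2.80 and -3.54 in the chronic stage, and the miR-30e-5p to miR-30a-5p ratio overlaps between groups in every stage.

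SE was compared with control rats within each onset age and stage. None of the 7 members changed in any of the 6 comparisons by edgeR's quasi-likelihood test, and none was called by DESeq2 or limma-trend. Among all miRNAs 4.96% were called in infancy-onset and 3.66% in adult-onset rats in the acute stage, 0.493% and 7.39% in the latent stage, and 0.0% and 1.36% in the chronic stage. Over the 42 member tests, 6 (14.3%) had an unadjusted p under 0.05, against 376 of 2462 (15.3%) over all miRNAs. The largest change of a member was 0.33 on the log2 scale in size, standard errors ran from 0.07 to 0.27, and the approximate 95% intervals lay within -0.63 and 0.62. These intervals are somewhat narrow. That of miR-30e-5p in latent adult-onset rats, -0.52 to -0.003, left out 0 at an unadjusted edgeR p of 0.0593. No member separated SE rats from controls without overlap, and the share of all miRNAs that did so was not counted.

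The members nearest to a call are given with their values. In the acute stage miR-30c-5p had 10568, 11763 and 14400 CPM in adult-onset SE rats, against 12483, 13950 and 16544 CPM in controls, and 8 of 9 SE rats lay under the control median. Its log2 fold change was -0.26 (SE 0.09, edgeR adjusted p = 0.107). It passed without SE rat 1 at -0.31 (edgeR adjusted p = 0.0282) and under limma voom with sample weights at -0.29 (adjusted p = 0.0221). miR-30d-5p was at -0.33 in the same rats (SE 0.15, edgeR adjusted p = 0.231). These SE libraries were the shallower ones. With the library total as a covariate no member passed, but that fit called 0 of all 383 miRNAs, against 14 in the main fit. It therefore shows nothing particular to the members. The part of depth in these values was not tested further. In infancy-onset rats the acute changes ran from -0.18 for miR-30c-5p to 0.13 for miR-30a-5p, and no member had an unadjusted p under 0.05.

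In the latent stage the members with an unadjusted p under 0.05 were all in infancy-onset rats. miR-30a-5p had 22971, 26079 and 30168 CPM in SE rats, against 22500, 28743 and 36936 CPM in controls, with 9 of 10 SE rats under the control median (log2 fold change -0.23, SE 0.08, edgeR adjusted p = 0.149). Without infancy-onset control 3 it passed at -0.27 (edgeR adjusted p = 0.0447). miR-30e-5p (-0.23, SE 0.09, edgeR adjusted p = 0.191) and miR-30e-3p (-0.27, SE 0.12, edgeR adjusted p = 0.317) were the others. In adult-onset rats miR-30e-5p had the largest value, -0.26 (SE 0.13, edgeR adjusted p = 0.265).

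In the chronic stage miR-30b-5p was the nearest to a call. It had 1177, 1448 and 1986 CPM in adult-onset SE rats, against 768, 1158 and 1459 CPM in controls, and all 10 SE rats lay above the control median (log2 fold change 0.31, SE 0.13, edgeR adjusted p = 0.211). With library totals alone as scaling it passed at 0.42 (edgeR adjusted p = 0.0475), as under limma voom with sample weights at 0.39 (adjusted p = 0.0381). These settings called 19 and 26 of all 442 miRNAs, against 6 in the main fit. In infancy-onset rats miR-30b-5p was at -0.09 (SE 0.19, edgeR adjusted p = 0.985), and the members ranged from -0.09 to 0.23, with miR-30e-5p and miR-30a-5p both at 0.23.

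**Figure D4:**
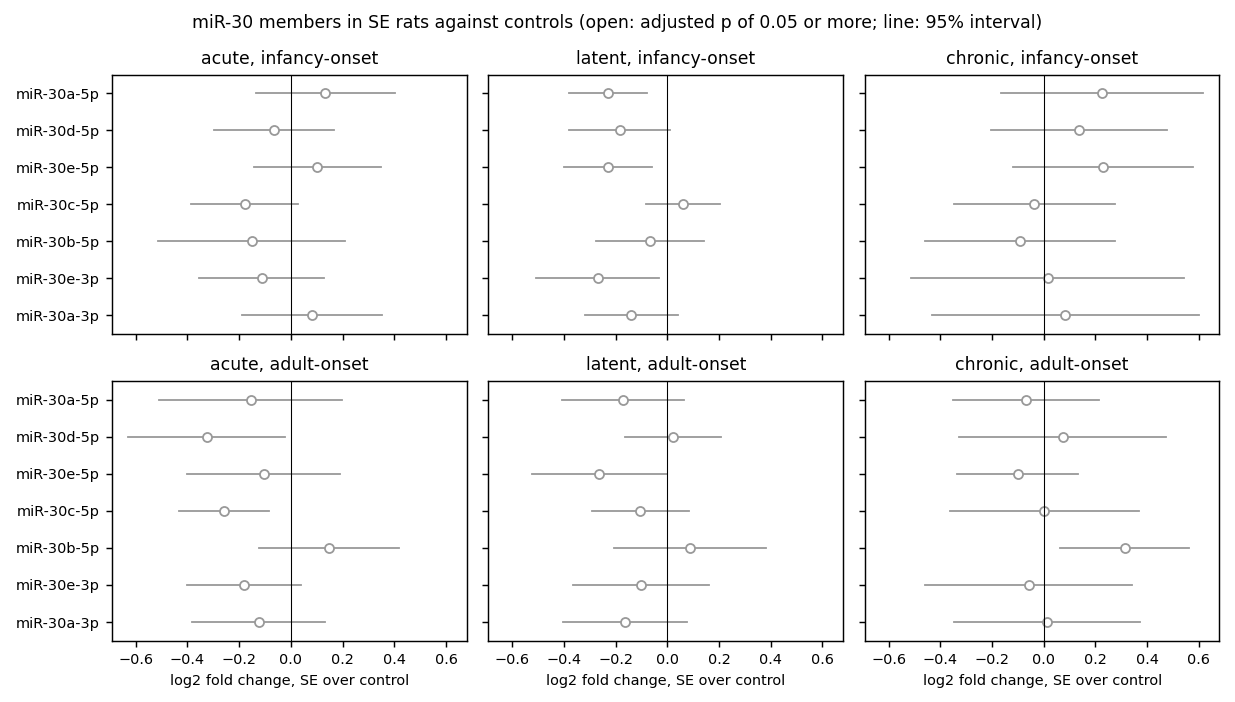
Log2 fold changes of the 7 members in SE over control rats, in infancy-onset (upper row) and adult-onset rats (lower row) and in 3 stages, with approximate 95% intervals. All points are open, since no member reached an edgeR adjusted p under 0.05, and they lie between -0.33 and 0.31.

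The difference between onset ages in the SE change was tested as an interaction, the infancy-onset change minus the adult-onset change. No member was called in any stage by edgeR, where 0.261% of miRNAs were called in the acute, 3.2% in the latent and 0.905% in the chronic stage. Of the 21 member tests 1 had an unadjusted p under 0.05, miR-30b-5p in the chronic stage at -0.48 (SE 0.22, edgeR adjusted p = 0.516). DESeq2 also called none, and limma voom with sample weights called miR-30a-5p at 0.55 (adjusted p = 0.0453) and miR-30e-5p at 0.48 (adjusted p = 0.0448) in the chronic stage. Under limma voom 79 of all 442 miRNAs were called there, against 4 with edgeR. These interactions share their control rats with the SE and control comparisons. In the chronic stage miR-30b-5p had a median of 1158 CPM in the 10 adult-onset controls, against 1751 CPM in infancy-onset controls. The median was 1419 CPM in infancy-onset and 1448 CPM in adult-onset SE rats. Its control difference, adult-onset SE change, interaction and ratio to miR-30e-5p all rest on these adult-onset controls and are not separate results.

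Markers of infiltrating and resident immune cells did move with SE in some comparisons. Of the 5 microglia and myeloid miRNAs (miR-142-3p, miR-142-5p, miR-223-3p, miR-150-5p and miR-155-5p), 2 rose in acute infancy-onset, 3 in acute adult-onset, 3 in latent adult-onset and 1 in chronic adult-onset SE rats. Their summed level was 641 to 851 CPM in SE rats, against 486 to 621 CPM in controls, in the acute infancy-onset comparison, and 980 to 2342 CPM against 824 to 1329 CPM in the acute adult-onset comparison. In latent and chronic infancy-onset SE rats 0 of the 5 were called. Over all miRNAs 4.96% were called in acute infancy-onset, 3.66% in acute adult-onset, 7.39% in latent adult-onset and 1.36% in chronic adult-onset SE rats. No miR-30 member was called in these libraries, and the marker counts do not measure how small a change could be called.

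The arm balance was measured as the log2 ratio of 3p to 5p reads of one hairpin in each library, with 0.5 added to each count. It was strongly towards 5p for both hairpins. The 3p arm made up 1.08% of the summed miR-30a reads in the acute, 2.00% in the latent and 1.78% in the chronic stage, and 2.76%, 6.68% and 6.06% of the miR-30e reads. Over all hairpins with both arms measured the median 3p share was 33.5%, 41.7% and 38.7% in these stages.

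Neither hairpin changed its arm balance in any of 9 comparisons. None of the 18 tests passed and none had an unadjusted p under 0.05, by two-sided exact permutation tests adjusted over all hairpins of a comparison. The largest difference was that of miR-30e in acute infancy-onset rats, with -5.21 ± 0.25 in SE rats and -4.96 ± 0.29 in controls (SD, n = 8 and n = 9, exact permutation p = 0.0801, adjusted p = 0.353). For comparison, the share of hairpins called was 1.82% of 110 in acute infancy-onset SE rats and 0.0% in acute adult-onset SE rats, and 0.0% in latent and in chronic SE rats of either onset age (120 and 142 hairpins).

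In controls, where 31.8% of hairpins differed in the acute, 21.7% in the latent and 2.82% in the chronic stage, miR-30a and miR-30e did not pass either. In the acute stage miR-30a was at -6.39 ± 0.28 in infancy-onset controls and -6.42 ± 0.34 in adult-onset controls (SD, n = 9 each, exact permutation, adjusted p = 0.899), and miR-30e at -4.96 ± 0.29 and -5.02 ± 0.26 (exact permutation, adjusted p = 0.709). In the latent stage the differences were 0.05 for miR-30a and 0.10 for miR-30e, and in the chronic stage -0.15 and 0.08. In the acute stage, where both arms of both hairpins were lower in infancy-onset controls, the ratios differed by less than the spread between rats.

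**Figure D5:**
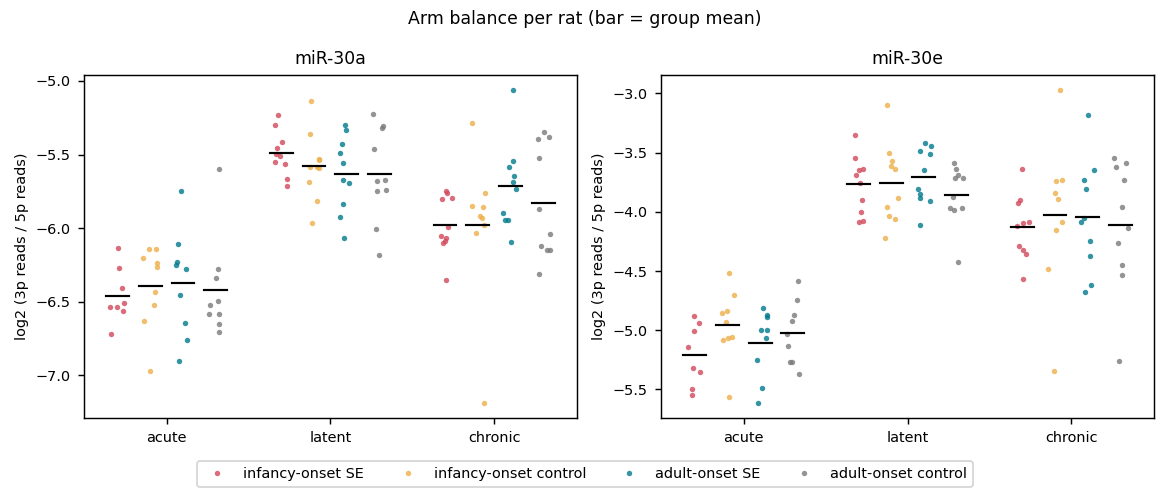
Log2 ratio of 3p to 5p reads of miR-30a and miR-30e, 1 point per rat and a bar at the group mean, for the 4 groups of each stage. Groups overlap within every stage, and the acute table as a whole lies lower than the latent and chronic ones, near -6.4 for miR-30a in the controls.

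The acute table stood apart in these ratios in all groups alike. Group means of miR-30e ran from -5.21 to -4.96 in the acute, -3.86 to -3.71 in the latent and -4.13 to -4.03 in the chronic stage. The miR-30e-5p to miR-30a-5p ratio in controls also lay higher in the acute stage, at -0.55 in infancy-onset and -0.39 in adult-onset controls, than in the latent stage (-1.28 and -1.20) and the chronic stage (-1.23 and -1.22). Since rats of each onset age shared this shift and the stages were separate tables, stage and table cannot be told apart.

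The miRNAs of most similar pattern were sought over the 12 group means of log2 CPM, among 369 miRNAs outside the family that were tested in all stages. For miR-30a-5p, the 5p member of highest mean level, they were miR-221-5p (Pearson r = 0.93), miR-185-5p (r = 0.91) and miR-582-3p (r = 0.89). For miR-30e-3p, the more abundant 3p member, they were miR-140-3p (r = 0.94), miR-582-3p (r = 0.92) and miR-221-5p (r = 0.91). Within the family miR-30a-5p was most like miR-30e-3p (r = 0.93) and miR-30a-3p (r = 0.89), and unlike miR-30d-5p (r = -0.45). The 12 means share 3 tables, so the shift between tables enters each r, and the values are descriptions.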

How the data were processed

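Small RNA was sequenced from 120 labelled rat hippocampi, of which 114 had counts, and the 6 others were not analysed here. The authors removed adapters (Kraken, Cutadapt), kept reads by quality and length, and counted them per mature miRNA with seqBuster against miRBase, allowing 1 mismatch. The deposited raw counts were tested. The deposited normalized signal, which equals the authors' raw count divided by 1 size factor per library, entered the limma-trend alternative only. The submitters' processing notes name DESeq2 1.16.1.

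miRNAs with over 500 reads summed over a stage were fitted with edgeR 4.0.16 (quasi-likelihood F test, TMM scaling, Benjamini-Hochberg adjustment over all miRNAs, calls at an adjusted p under 0.05) in R 4.3.3. SE comparisons used a fit of their 2 groups, and control comparisons and interactions a fit of the 4 groups of a stage. Arm ratios used exact permutation tests over all hairpins. Alternatives used limma 3.58.1, DESeq2 1.42.0 (with its size factors), other scalings and filters, library total as a covariate and leaving out single rats. All 7 members were named whatever their values, the other arms with values, and the 3 miRNAs most like miR-30a-5p and miR-30e-3p by correlation. Members and lists were chosen with earlier results of these data known. Fits and arm tests were tested on simulated data. Python 3.11.15, pandas 2.3.3 and matplotlib 3.10.9 made tables and figures.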

Additional observations from a re-analysis of the deposited data

Results flagged for a closer look

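Among the 108 sets of values tested (7 members and 2 arm ratios in 12 groups), 9 held a rat far from the rest of its group, by the gap to its nearest neighbour relative to the group's range. Chance alone flags about 1 in 20 sets, or 5.4 here. In the acute adult-onset controls, control 1 had 17007 CPM of miR-30a-5p, against 25620 to 32979 CPM in the others, and a miR-30a log2 3p to 5p ratio of -5.60, against -6.71 to -6.27. Its library was the shallowest of that group, at 507283 reads. In the latent stage, infancy-onset SE rat 9 had 13409 CPM of miR-30d-5p, against 19058 to 28184 CPM, infancy-onset control 10 had 2286 CPM of miR-30b-5p, against 1176 to 1630 CPM, and adult-onset control 2 had a miR-30e log2 ratio of -4.42, against -3.98 to -3.58. In the chronic stage, infancy-onset control 9 had 119 CPM of miR-30a-3p, against 342 to 867 CPM, and a miR-30a log2 ratio of -7.18, against -6.04 to -5.28. Chronic adult-onset SE rat 4 had a miR-30a log2 ratio of -5.06, against -6.09 to -5.54, and adult-onset control 5, one of the libraries that stood apart, had 2812 CPM of miR-30c-5p, against 6266 to 11798 CPM.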

How the results depend on the processing

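No member's call reversed direction under any alternative. The count of members called in acute adult-onset SE rats was 1 with limma voom, and 0 to 1 as single rats were left out. In latent infancy-onset SE rats it was 0 to 1 as single rats were left out. In chronic adult-onset SE rats it was 1 with library totals only and 1 with limma voom. For chronic controls it was 0 with library totals only, without a filter on low counts and when the 2 control groups were fitted alone, 2 with limma voom (miR-30a-3p added at -0.65), and 0 to 1 as single rats were left out. In these controls limma voom called 153 of all 442 miRNAs, against 29 in the main fit. For the chronic interaction the count of members called was 2 with limma voom, which called 79 of all 442 miRNAs there. Causes were not tested. For acute and latent controls counts stayed within 1.5 times the main one, at 4 to 5 and 3 to 6 over the alternatives. Library totals as scaling moved the median log2 fold change of all miRNAs in controls to 0.20, 0.17 and -0.22 in the acute, latent and chronic stages, and miR-30d-5p then passed as higher in latent infancy-onset controls (0.33). Leaving out the libraries that stand apart, chosen after seeing the data, changed no count. No arm balance test changed its call. Over single members and arm ratios, 764 results under other settings stayed on their side of the threshold, 13 gained and 7 lost a call, and with single rats left out 1981 stayed, 10 gained and 4 lost one. No paired analysis was possible because each rat gave 1 library and replicate numbers only follow accession order. The shallowest libraries limit the 3p arms most, with 63 reads of miR-30a-3p at the least among the members. The other arms had fewer reads still, with 0 reads of miR-30b-3p and of miR-30c-1-3p as the lowest counts in a chronic library.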
